A study of Rattus norvegicus with 14 samples.

Results

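Cell cycle and DNA replication genes were examined in fetal rat testes after exposure in the womb to dicyclohexyl phthalate (DCHP), an ester used as a plasticizer. The 41 genes were chosen by name as known components of origin licensing, DNA synthesis, cyclin-dependent kinase activity, the spindle and its checkpoint. Of these, 37 were matched to the count table of 18174 genes and 34 had enough counts to be tested, among 12719 tested genes. Harlan Sprague Dawley dams received corn oil alone (vehicle) or DCHP in corn oil by gavage at 100 mg/kg/day or at 300, 600 or 900 mg/kg/day between gestational days 14 and 18. Testes were taken at gestational day 18 and combined within a litter, which gave 3 litters per group and 2 at 900 mg/kg/day. Each library therefore averages the fetuses of 1 dam, and the litter is the replicate. The assay was TempO-Seq, a targeted method that sequences probe pairs ligated on each RNA, and libraries held 5558873 to 11272861 estimated counts, of which 19860 to 40972 were of the 37 genes. Because whole testes were measured, fewer dividing cells and less RNA per dividing cell cannot be told apart.

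A cell commits to division when cyclin-dependent kinases, among them CDK2 with cyclin E, release E2F factors from the RB proteins. E2F then switches on genes for the MCM helicase, its loaders Cdc6 and Cdt1, the sliding clamp Pcna and the enzymes of nucleotide supply. Later, cyclin A, cyclin B and Cdk1 drive entry into mitosis, when FOXM1 and MYBL2 act with a MuvB complex on promoters that carry the CHR element and the CCAAT box bound by NF-Y. In the fetal rat testis late in gestation, Sertoli cells and interstitial cells divide while germ cells leave the cycle.

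None of the 34 tested members passed the test at any dose, between the 2 highest doses or over dose in the model of all 14 libraries. In some fits of fewer libraries 6 to 9 passed (17.6% to 26.5%), beside 11.6% to 16.4% of all tested genes. Most of these counts came from leaving out 2 litters chosen, after seeing the data, for lying with the 900 mg/kg/day litters. Outside the 41 genes, the inhibitor Cdkn1c fell at 300, 600 and 900 mg/kg/day. The call at 300 mg/kg/day was lost in 12 of 14 fits that each left out 1 library, and that at 900 mg/kg/day in 1. Mki67, which coats mitotic chromosomes and is a widely used marker of dividing cells, stayed between 494 and 576 CPM (counts scaled to a common library size) in all 14 litters. The summed level of the 37 genes was 3756 ± 165 CPM in vehicle litters and 3578 ± 84.0 CPM in those at 900 mg/kg/day (mean ± SD, n = 3 and 2). Some members varied more than 2-fold between litters of the same dose. The median range over vehicle litters, after adding 0.5 CPM, was 1.48-fold for the members and 1.47-fold for all tested genes.

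The promoters of 7 members that carry this account are shown first: Mki67, the steadiest gene, and 6 genes whose litter values split into high and low. Each run is the 250 bases upstream of the annotated start, from RefSeq on GRCr8, printed 5′ to 3′ on the strand of the gene. Capitals mark 3 elements read on both strands: the CCAAT box (CCAAT), the CHR (TTTGAA or TTCGAA) and an E2F word (TTTCCCGC, TTTGGCGC, TTTCGCGC or TTTGCCGC). Matches may overlap.
Mki67 (chr1:199952594-199952843, minus strand): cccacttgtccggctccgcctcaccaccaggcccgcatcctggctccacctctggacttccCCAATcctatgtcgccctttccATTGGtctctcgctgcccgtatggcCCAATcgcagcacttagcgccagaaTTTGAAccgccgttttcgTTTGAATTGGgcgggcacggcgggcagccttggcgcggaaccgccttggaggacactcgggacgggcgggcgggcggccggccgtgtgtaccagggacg
Cdk1 (chr20:19265043-19265292, plus strand): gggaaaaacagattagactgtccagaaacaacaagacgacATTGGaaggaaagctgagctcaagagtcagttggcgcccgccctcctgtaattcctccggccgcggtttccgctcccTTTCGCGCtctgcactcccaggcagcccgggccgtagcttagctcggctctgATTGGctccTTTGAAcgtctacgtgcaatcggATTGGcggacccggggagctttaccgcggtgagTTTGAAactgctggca
Prc1 (chr1:143659231-143659480, plus strand): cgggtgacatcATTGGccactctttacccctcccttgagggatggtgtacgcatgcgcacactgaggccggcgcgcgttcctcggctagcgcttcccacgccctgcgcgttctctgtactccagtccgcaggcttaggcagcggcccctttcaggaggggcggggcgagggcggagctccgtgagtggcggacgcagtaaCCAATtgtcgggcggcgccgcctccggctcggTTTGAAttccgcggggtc
Mcm5 (chr19:13488563-13488812, plus strand): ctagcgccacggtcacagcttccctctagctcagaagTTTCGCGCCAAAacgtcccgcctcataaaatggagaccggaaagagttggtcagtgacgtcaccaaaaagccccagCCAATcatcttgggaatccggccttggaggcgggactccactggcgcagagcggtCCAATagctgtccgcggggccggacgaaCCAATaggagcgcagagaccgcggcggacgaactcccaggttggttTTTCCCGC
Nusap1 (chr3:127057045-127057294, plus strand): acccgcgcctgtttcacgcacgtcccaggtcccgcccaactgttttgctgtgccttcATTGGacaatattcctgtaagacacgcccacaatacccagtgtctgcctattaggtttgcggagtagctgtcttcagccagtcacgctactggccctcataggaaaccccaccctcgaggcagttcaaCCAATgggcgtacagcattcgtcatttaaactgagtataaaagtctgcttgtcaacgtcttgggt
Aurka (chr3:181560770-181561019, minus strand): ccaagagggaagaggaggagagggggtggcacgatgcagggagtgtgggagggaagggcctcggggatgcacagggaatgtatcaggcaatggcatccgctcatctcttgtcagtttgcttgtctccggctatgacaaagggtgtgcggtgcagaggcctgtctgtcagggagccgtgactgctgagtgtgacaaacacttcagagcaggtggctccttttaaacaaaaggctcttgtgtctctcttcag
Tyms (chr9:120776084-120776333, minus strand): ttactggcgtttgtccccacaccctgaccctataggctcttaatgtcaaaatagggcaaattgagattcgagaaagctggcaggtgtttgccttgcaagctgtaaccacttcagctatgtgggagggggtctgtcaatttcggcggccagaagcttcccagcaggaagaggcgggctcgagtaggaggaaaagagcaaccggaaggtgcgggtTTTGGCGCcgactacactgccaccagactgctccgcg

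The Mki67 window held 4 CCAAT boxes and 2 CHR words, that of Cdk1 held 3 and 2 with 1 E2F word, and that of Prc1 held 2 and 1. Mcm5 had 3 CCAAT boxes and 3 E2F words, Nusap1 had 2 CCAAT boxes, Tyms had 1 E2F word, and none of these words occurred in the Aurka window. Over the 34 of 41 members with a promoter in the table, 25 (73.5%) held a CCAAT box against 34.02% of all 33469 promoters, and 18 (52.9%) held 2 or more against 9.42%. A CHR word was present in 12 (35.3%) against 17.4%, and an E2F word in 7 (20.6%) against 1.73%. These are matches of letters and say nothing about binding.

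Tests are reported as log2 fold changes ± SE from edgeR's quasi-likelihood model of all 14 libraries, with two-sided p adjusted by Benjamini-Hochberg over the 12719 genes and a threshold of 0.05. The adjusted p was over the threshold for each of the 34 members in each of the 6 comparisons. Among all tested genes the share past the threshold was 0% at 100, 0.0472% at 300, 0.220% at 600 and 0.252% at 900 mg/kg/day, 0% between 900 and 600 mg/kg/day, and 0.425% for the slope over dose. At an unadjusted p under 0.05 the members numbered 0, 0, 1, 0, 1 and 1 in that order, all lower. The shares of all tested genes at that level were 3.40%, 3.65%, 4.79%, 4.99%, 8.32% and 5.09%. DESeq2 also passed 0 members in each comparison, with 0, 0, 0, 1, 2 and 1 at an unadjusted p under 0.05. Over all genes it called 0 higher and 2 lower, 3 and 24, 6 and 53, 12 and 79, 1 and 7, and 35 and 84 in that order. The share of all genes at an unadjusted p was not counted for DESeq2.

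The median log2 fold change of the 34 members against vehicle was 0.016, -0.016, -0.030 and -0.042 from the lowest dose to the highest, beside 0.010, -0.015, -0.021 and 0.024 over all tested genes. At 900 mg/kg/day 16 members had a positive and 18 a negative value. A p over the threshold does not show that a gene did not change, so the 95% intervals set the limits. At 100, 300, 600 and 900 mg/kg/day the interval lay inside a 2-fold change in either direction for 33, 32, 29 and 25 of the 34 members. It lay inside a 1.5-fold change for 18, 18, 19 and 12.

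**Figure D1:**
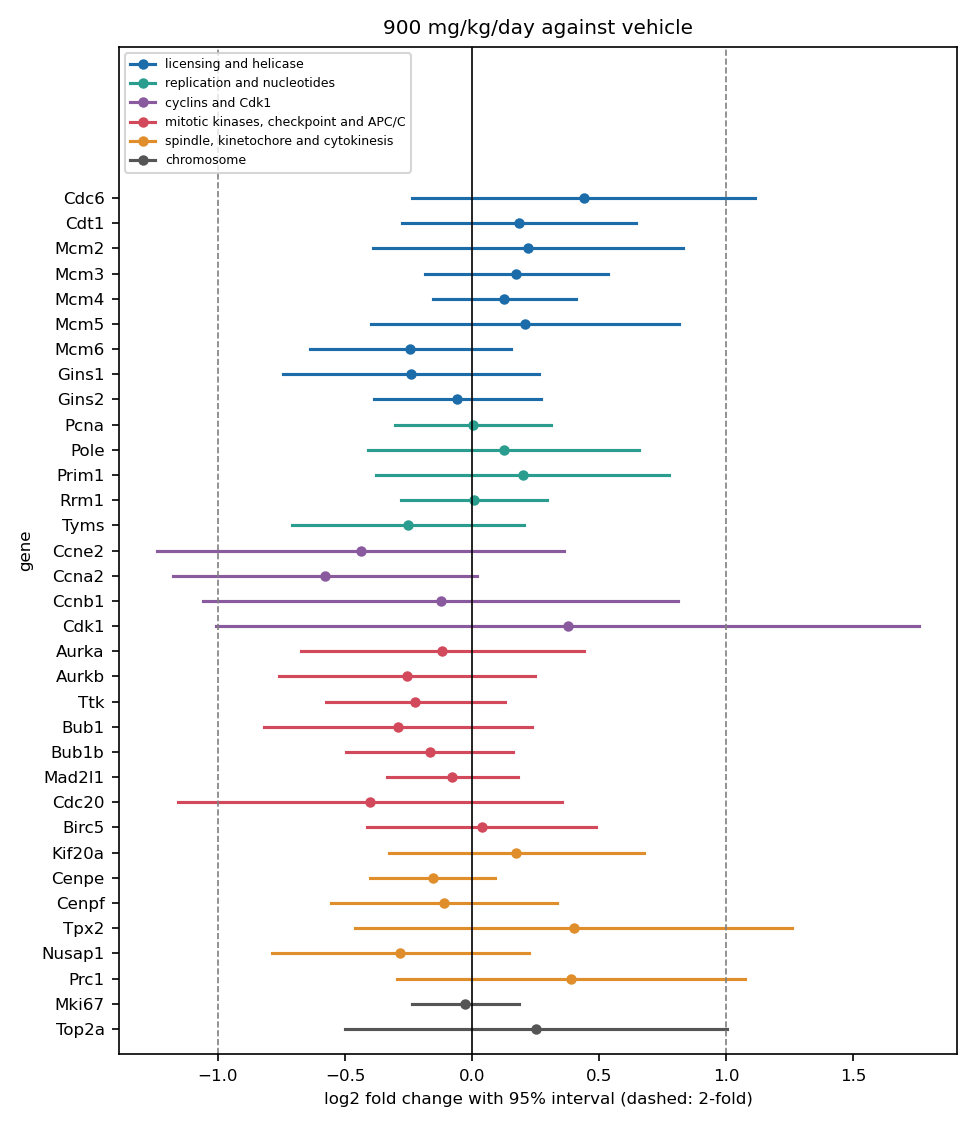
Log2 fold change at 900 mg/kg/day against vehicle for the 34 tested cell cycle genes (points) with 95% intervals (lines), coloured by role; dashed lines mark a 2-fold change. All intervals include 0, and those of Cdc6, Ccne2, Ccna2, Ccnb1, Cdk1, Cdc20, Tpx2, Prc1 and Top2a reach past 2-fold.

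Origin licensing and the helicase had 9 tested members. Mcm5, a subunit of the MCM ring that opens the double helix (chr19:13483066-13504390; rn7, as for all gene coordinates here), was at 75.7, 48.6 and 59.8 CPM in vehicle, 108, 48.1 and 54.3 at 100, 53.3, 58.8 and 57.3 at 300, 59.3, 57.2 and 57.9 at 600, and 77.9 and 63.9 at 900 mg/kg/day. The first vehicle litter and the first 100 mg/kg/day litter were high within their groups. The 900 mg/kg/day litters lay above all litters at 300 and 600 mg/kg/day and overlapped those of vehicle and 100 mg/kg/day. At 900 mg/kg/day its log2 fold change was 0.21 ± 0.28 (95% interval 0.760 to 1.76-fold). Cdt1, which loads the ring onto origins, averaged 25.9 ± 4.19 CPM in vehicle litters and 29.4 ± 3.65 CPM in the 900 mg/kg/day litters (mean ± SD, n = 3 and 2), with a log2 fold change of 0.18 ± 0.21 (0.825 to 1.56-fold). Cdc6, its partner in loading, had a log2 fold change of 0.44 ± 0.31 at that dose (unadjusted p = 0.1842 and adjusted p = 0.8517 in edgeR). Its vehicle litters ran from 10.05 to 22.8 CPM and those at 900 mg/kg/day were at 23.0 and 21.7 CPM. The log2 fold change of Mcm6, another ring subunit, was the most positive of the 34 at 100 mg/kg/day, 0.28 ± 0.16 (0.953 to 1.55-fold), and was -0.24 ± 0.18 at 900 mg/kg/day. Gins2, part of the GINS complex that completes the active helicase, had a log2 fold change of -0.20 ± 0.14 at 300 mg/kg/day (unadjusted p = 0.1654 in edgeR). At 900 mg/kg/day 6 of the 9 values were positive and 3 negative.

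Of the replication and nucleotide genes, 5 were tested. Pcna, the clamp that holds DNA polymerases on the template (chr3:119498810-119502996), was at 101, 87.3 and 78.0 CPM in vehicle, 87.8, 80.9 and 82.1 at 100, 79.7, 76.4 and 88.7 at 300, 94.3, 73.2 and 79.3 at 600, and 91.2 and 86.6 at 900 mg/kg/day. The groups overlapped and the log2 fold change at 900 mg/kg/day was 0.0039 ± 0.14 (0.812 to 1.24-fold). Rrm1, the large subunit of ribonucleotide reductase, had a log2 fold change of 0.0088 ± 0.13 there (0.825 to 1.23-fold). Pole, a leading-strand polymerase, and Prim1, the primase, had log2 fold changes of 0.12 ± 0.25 and 0.20 ± 0.27. Tyms, which makes thymidylate, was at 221, 276 and 302 CPM in vehicle, 159, 276 and 295 at 100, 259, 272 and 282 at 300, 285, 290.1 and 287 at 600, and 204 and 243 at 900 mg/kg/day. Both 900 mg/kg/day litters, the first vehicle litter and the first 100 mg/kg/day litter held its lowest values, and the log2 fold change at 900 mg/kg/day was -0.25 ± 0.21 (0.613 to 1.15-fold). The counts of Tyms were not whole numbers in any of the 14 libraries. Rrm2, the small reductase subunit, was not analysed here.

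Of the cyclins and Cdk1, 4 were tested, and none of the 4 had a 95% interval inside a 2-fold change at 900 mg/kg/day. Ccna2, cyclin A2, which acts in S phase and in entry to mitosis (chr2:119426089-119433578), was at 114, 235 and 139 CPM in vehicle, 134, 225 and 172 at 100, 166, 133 and 179 at 300, 181, 146 and 158 at 600, and 117 and 101 at 900 mg/kg/day. The vehicle litters spanned 2.05-fold and enclosed one of the 900 mg/kg/day litters. Its log2 fold change at 900 mg/kg/day was -0.58 ± 0.28 (0.442 to 1.01-fold, unadjusted p = 0.05721, adjusted p = 0.8517 in edgeR), the smallest p of the members in that comparison. Against 600 mg/kg/day, where no litter overlapped, it was -0.57 ± 0.28 (adjusted p = 0.5081 in edgeR). Its slope was -0.053 ± 0.027 log2 per 100 mg/kg/day.

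Cdk1, the kinase that starts mitosis (chr20:19266248-19281409), was at 12.4, 4.08 and 5.14 CPM in vehicle, 14.1, 3.05 and 3.16 at 100, 2.26, 6.88 and 3.60 at 300, 3.38, 4.98 and 3.33 at 600, and 11.2 and 7.64 at 900 mg/kg/day. It was the widest of the members. After adding 0.5 CPM to each value, its range was 5.30-fold over litters and 2.82-fold among vehicle litters alone. Its log2 fold changes were -0.77 ± 0.61, -0.89 ± 0.62 and 0.38 ± 0.64 at 300, 600 and 900 mg/kg/day, and the interval at 900 mg/kg/day was 0.498 to 3.38-fold. Cdk1 counts were low, from 18 to 125 in a library. Ccnb1, cyclin B1, had 8 to 44 counts and averaged 2.35 ± 0.204 CPM in vehicle litters and 2.18 ± 0.659 CPM in the 900 mg/kg/day litters (mean ± SD, n = 3 and 2), with a log2 fold change of -0.12 ± 0.43 (0.481 to 1.75-fold). Ccne2, cyclin E2, which acts at the start of S phase, had a log2 fold change of -0.44 ± 0.37 at 900 mg/kg/day (0.424 to 1.29-fold). Ccne1, Ccnb2 and the helicase subunit Mcm7 were not analysed here either.

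Of the mitotic kinase, checkpoint and APC/C genes, 8 were tested, and 7 of the 8 log2 fold changes were negative at 900 mg/kg/day without any passing. Aurkb, the kinase of the chromosomal passenger complex that corrects attachments to the spindle, was at 219, 366 and 354 CPM in vehicle, 212, 369 and 364 at 100, 354, 348 and 392 at 300, 369, 375 and 387 at 600, and 251 and 273 at 900 mg/kg/day. The 900 mg/kg/day litters lay below all 600 mg/kg/day litters, while in vehicle and at 100 mg/kg/day the first litter of each was lower still. Its log2 fold change between 900 and 600 mg/kg/day was -0.53 ± 0.24 (unadjusted p = 0.04314, adjusted p = 0.5081 in edgeR), and against vehicle -0.26 ± 0.23. Birc5, survivin, a subunit of the same complex, averaged 62.6 ± 8.33 CPM in vehicle litters and 64.3 ± 12.6 CPM in the 900 mg/kg/day litters (mean ± SD, n = 3 and 2), with a log2 fold change of 0.037 ± 0.21 (0.751 to 1.40-fold).

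Ttk, the kinase that starts the spindle checkpoint, was at 64.6, 62.4 and 69.5 CPM in vehicle, 76.6, 84.9 and 70.7 at 100, 58.8, 67.9 and 67.5 at 300, 74.4, 57.7 and 52.9 at 600, and 62.4 and 49.9 at 900 mg/kg/day. One 900 mg/kg/day litter equalled the lowest vehicle litter to 3 digits and the other was lower, while all 100 mg/kg/day litters were above vehicle. Its slope was -0.037 ± 0.016 log2 per 100 mg/kg/day (unadjusted p = 0.03454, adjusted p = 0.8873 in edgeR), and its log2 fold changes were 0.24 ± 0.15 at 100 and -0.22 ± 0.16 at 900 mg/kg/day. Cdc20, which activates the APC/C at the end of metaphase, was at 4.17, 5.38 and 2.86 CPM in vehicle, 4.83, 3.94 and 3.57 at 100, 5.26, 3.32 and 5.40 at 300, 2.00, 2.02 and 3.70 at 600, and 3.37 and 2.92 at 900 mg/kg/day. It had a log2 fold change of -0.71 ± 0.33 at 600 mg/kg/day (unadjusted p = 0.04985, adjusted p = 0.9505 in edgeR) and -0.40 ± 0.35 at 900 mg/kg/day, where vehicle and treated litters overlapped. Bub1, a checkpoint kinase of the kinetochore, had log2 fold changes of -0.37 ± 0.22 at 100 and -0.29 ± 0.24 at 900 mg/kg/day. The second vehicle litter was at 16.6 CPM and the other 2 at 9.93 and 9.83 CPM, and without that litter the log2 fold change at 900 mg/kg/day was 0.0060. Mad2l1, a checkpoint protein that holds back Cdc20, had a log2 fold change of 0.19 ± 0.11 at 100 mg/kg/day, the smallest p of the members there (unadjusted p = 0.1029 in edgeR). Plk1, another mitotic kinase, had 0 to 4 counts in a library and was not tested.

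Of the spindle, kinetochore and cytokinesis genes, 6 were tested. Cenpe, the kinetochore motor, was at 219, 230.3 and 211 CPM in vehicle, 193, 222 and 186 at 100, 174, 199 and 202 at 300, 180.2, 197 and 199 at 600, and 200.4 and 195 at 900 mg/kg/day. Every vehicle litter was above every litter at 300, 600 and 900 mg/kg/day, by small amounts: the log2 fold changes were -0.20 ± 0.10, -0.20 ± 0.10 and -0.16 ± 0.11, with unadjusted p from 0.07088 at 300 mg/kg/day and adjusted p = 0.9995 in edgeR. Prc1, which bundles microtubules at the midzone, was at 188, 101 and 129.8 CPM in vehicle, 207, 89.4 and 104 at 100, 107, 149 and 124 at 300, 121, 132 and 100.1 at 600, and 195 and 171 at 900 mg/kg/day. Its 900 mg/kg/day litters lay above those at 600 mg/kg/day, with a log2 fold change of 0.64 ± 0.32 (unadjusted p = 0.06559, adjusted p = 0.5081 in edgeR), and overlapped those of vehicle, with 0.39 ± 0.32. Kif20a, a motor of cytokinesis, Cenpf, a kinetochore protein, Tpx2 and Nusap1 had log2 fold changes of 0.17 ± 0.23, -0.11 ± 0.21, 0.40 ± 0.40 and -0.28 ± 0.23 at 900 mg/kg/day. Kif11 (0 to 5 counts) and Ect2 (1 to 6 counts) were not tested.

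The chromosome group held Mki67 and Top2a. Mki67 (chr1:190496319-190522763) was at 507, 558 and 526 CPM in vehicle, 524, 576 and 514 at 100, 502, 548 and 519.7 at 300, 528, 537 and 494 at 600, and 542 and 500.1 at 900 mg/kg/day. The groups overlapped, the within-group SD was 0.073 log2 units, the smallest of the 34 members, and all 14 litters lay within 1.17-fold of each other. Its log2 fold change was -0.026 ± 0.10 at 900 mg/kg/day (0.849 to 1.14-fold) and its slope -0.0048 ± 0.0083 log2 per 100 mg/kg/day. Top2a, the topoisomerase that untangles sister chromatids, averaged 2.22 ± 0.593 CPM in vehicle litters and 2.69 ± 1.13 CPM in the 900 mg/kg/day litters (mean ± SD, n = 3 and 2) and had a log2 fold change of 0.25 ± 0.35 (0.706 to 2.00-fold). It was the 1 tested member with a mean count under 20.

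**Figure D2:**
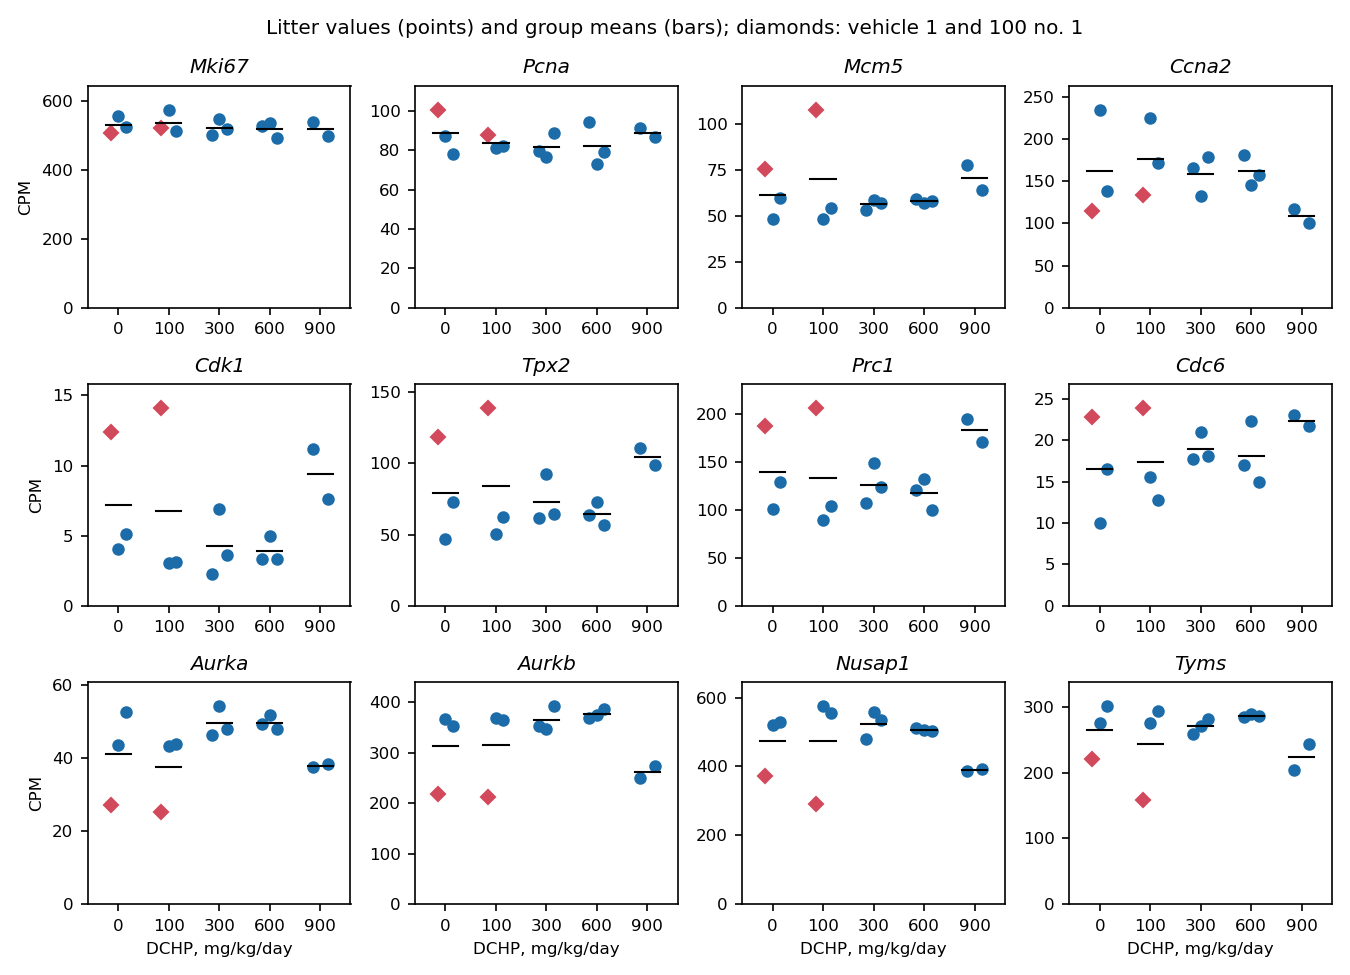
CPM of 12 cell cycle genes in each litter by DCHP dose (points), with group means (bars); red diamonds are vehicle litter 1 and 100 mg/kg/day litter 1. Mki67 lies between 494 and 576 CPM throughout, whereas Cdk1, Tpx2 and Prc1 are high and Aurka, Aurkb, Nusap1 and Tyms low in the diamonds and at 900 mg/kg/day.

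The spread between litters was examined because several members varied widely within a dose group. The median within-group SD of log2(CPM + 0.5) was 0.261 for the members and 0.304 for all tested genes. The widest members were Cdk1 (0.767), Tpx2 (0.508), Ccne2 (0.455) and Ccnb1 (0.410). On the first principal component of all tested genes (36.1% of the variance) the first vehicle litter (-42.6), the first 100 mg/kg/day litter (-65.1) and the 900 mg/kg/day litters (-38.2 and -22.8) had the 4 lowest scores. The second 300 mg/kg/day litter was also below 0, at -1.84, and the other 9 were above 0. This set of 4 litters was known from earlier results of these data and crosses the dose groups, so its values are given only as a description.

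These 4 litters held the 4 highest of the 14 values for Mcm3, Mcm5, Cdk1, Tpx2 and Prc1, and the 4 lowest for Tyms, Aurka, Aurkb and Nusap1. The 5 members at the top were 14.7% of the 34, beside 13.3% of all tested genes, and the 4 at the bottom were 11.8% beside 10.2%. Both shares are near the background. Mcm3 and Mcm5, subunits of 1 ring, were on the same side, as were Aurka and Aurkb, pairs picked after the split was seen. The other tested ring subunits, Mcm2, Mcm4 and Mcm6, had neither their 4 highest nor their 4 lowest values there. Other genes with related roles, picked after the split was seen, were on opposite sides. Tpx2, which activates Aurora A on the spindle, ran from 98.4 to 139 CPM in the 4 litters and from 47.1 to 92.6 CPM in the other 10. Aurka, the Aurora A kinase itself, ran from 25.3 to 38.3 CPM and from 43.3 to 54.3 CPM. Prc1 and Nusap1, both microtubule binders of the dividing cell, also lay on opposite sides: Prc1 was at 171 to 207 CPM against 89.4 to 149 CPM, and Nusap1 at 290.3 to 394 CPM against 479 to 575 CPM.

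**Figure D3:**
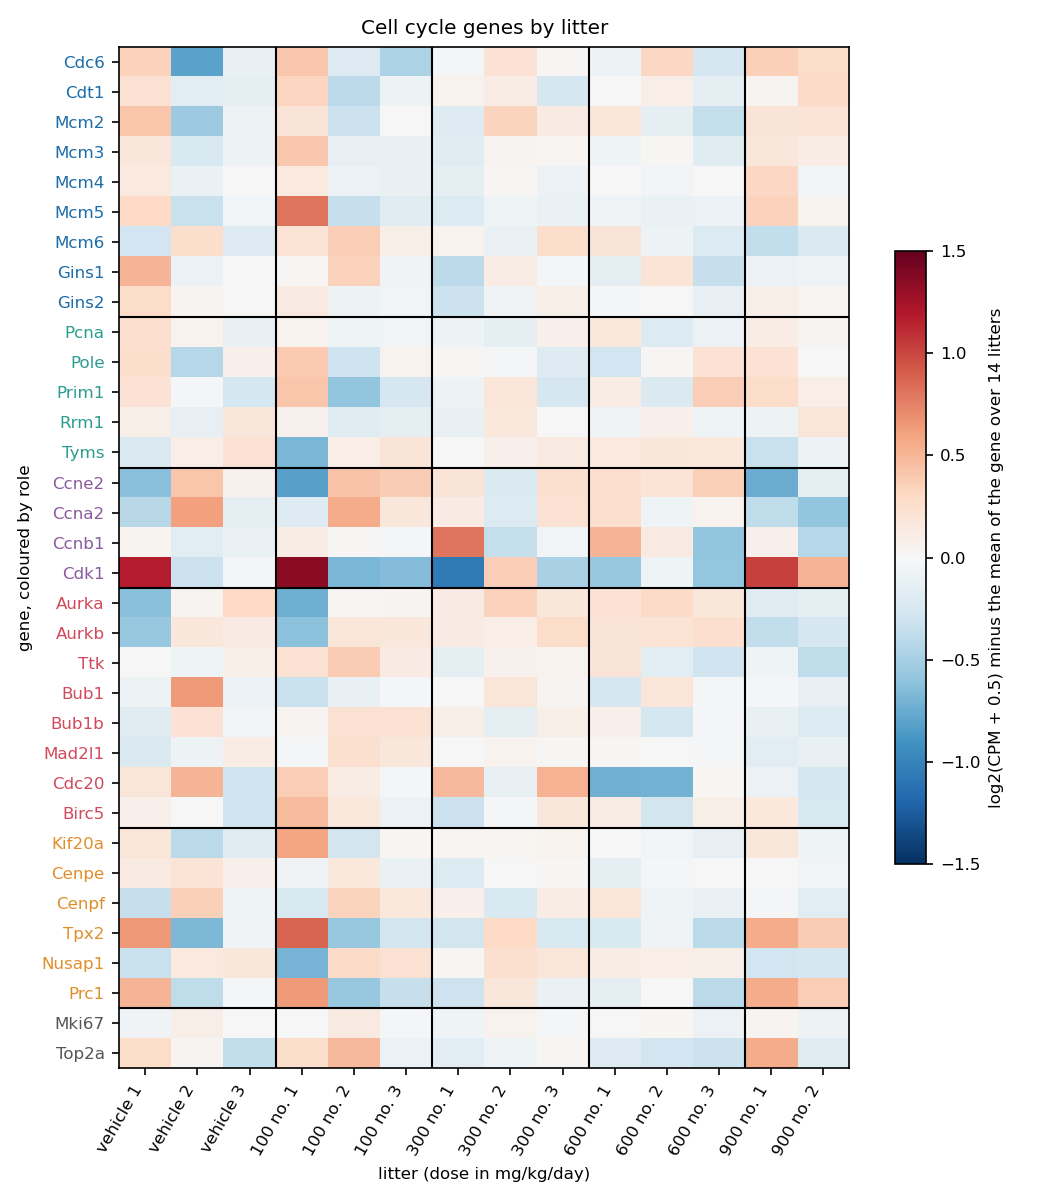
Log2(CPM + 0.5) of the 34 tested members in each litter, minus the mean of the gene over the 14 litters, with genes ordered and coloured by role and dose groups divided by lines. Vehicle litter 1, 100 mg/kg/day litter 1 and the 900 mg/kg/day litters share red cells for Cdk1, Tpx2 and Prc1 and blue cells for Aurka, Aurkb and Nusap1, while the Mki67 row is nearly white.

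Single markers of several cell types moved with the same litters, while most markers did not. Over all tested genes, 13.3% had their 4 highest and 10.2% their 4 lowest values in these litters. The share over the markers was not counted, so the markers below are only a description. Of 5 matched mesonephric duct markers, Krt8, a keratin of simple epithelia, had its 4 highest values there (57.7 to 72.9 CPM against 25.3 to 41.04 CPM). Their summed level was 76.6, 86.3, 63.7 and 65.3 CPM in the 4 litters and 33.3 to 47.4 CPM in the other 10. It rested on Krt8: Cdh1 (1.69 to 11.2 CPM against 1.35 to 9.03 CPM) and Lhx1 (2.06 to 2.98 CPM against 2.21 to 4.39 CPM) overlapped, and Pax2 and Pax8, the defining factors of the duct, were under 1 CPM in every litter. Among 6 interstitial progenitor markers, Nr2f2 (295 to 340.0 CPM against 162 to 225 CPM) and Nr2f1 had their 4 highest values there. Pdgfra, Tcf21 and Lhx9 had neither their 4 highest nor their 4 lowest values there. Among 8 Sertoli markers, Dhh and Gata4 had their 4 highest values there and Amh its 4 lowest (86.0 to 117 CPM against 126 to 220.4 CPM). Among 8 germ cell markers, Piwil2 had its 4 highest (74.7 to 130.0 CPM against 28.1 to 61.3 CPM) and Mael its 4 lowest. The Sertoli sum was 762, 700.3, 823 and 938 CPM in the 4 litters, 3 of them the lowest of all, and 831 to 996 CPM in the other 10. Kdr, among 6 endothelial markers, had its 4 highest values in the 4 litters, and Mrc1, among 6 macrophage markers, its 4 lowest. The macrophage sum was 18.2, 14.0, 19.2 and 20.9 CPM there and 20.2 to 27.2 CPM in the other 10. None of the 8 fetal Leydig, 6 peritubular or 5 erythroid markers had its 4 highest or 4 lowest values in these litters. The part of these cells in the member values was not tested.

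Leaving out 2 of these litters changed the counts. They were chosen because they lie with the 900 mg/kg/day litters, so that the choice itself can widen differences from vehicle and narrow the spread. Neither litter belongs to the 900 or 600 mg/kg/day group, so between those groups it bears on the shared spread. The counts below are a description that supports no call. Without the first vehicle litter and the first 100 mg/kg/day litter, a setting added after seeing the data, 8 of 34 members (23.5%) passed at 900 mg/kg/day against vehicle, beside 16.4% of all tested genes. Tpx2, Prc1 and Cdc6 were higher and Ccna2, Ccne2, Aurkb, Nusap1 and Tyms lower, with adjusted p from 0.003970 to 0.04573 in edgeR. Between 900 and 600 mg/kg/day 8 passed (23.5%, beside 13.8%), and for the slope 6 passed (17.6%, beside 11.6%). When only the 5 libraries of the 900 and 600 mg/kg/day groups were fitted, 9 passed (26.5%, beside 16.2%): Cdk1, Tpx2 and Prc1 higher, and Ccna2, Ccne2, Aurka, Aurkb, Nusap1 and Tyms lower. Mitotic genes were found on both sides in these fits, and Mki67 and Pcna passed in none of them.

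Other cell cycle genes were taken from a list of 104 regulators and machinery genes, of which 94 were matched and 88 were tested. Cdkn1c was the only one to pass in any comparison. It encodes p57, an inhibitor of cyclin-dependent kinases, and was at 17.4, 14.4 and 15.5 CPM in vehicle, 9.80, 7.36 and 9.79 at 100, 7.20, 7.12 and 6.45 at 300, 5.50, 4.82 and 6.10 at 600, and 4.46 and 4.29 at 900 mg/kg/day. All treated litters were below all vehicle litters. The log2 fold change was -0.81 ± 0.17 at 100 mg/kg/day, which did not pass (unadjusted p = 0.0004254, adjusted p = 0.9999 in edgeR), and the gene fell by 1.19, 1.53 and 1.85 log2 units at 300, 600 and 900 mg/kg/day (edgeR adjusted p = 0.02932, 0.003159 and 0.002752). Its slope was -0.19 ± 0.027 log2 per 100 mg/kg/day (edgeR adjusted p = 0.003544). The call at 300 mg/kg/day was lost in 12 of 14 fits that each left out 1 library, and that at 900 mg/kg/day in 1 of 14. Summed fetal Leydig markers (8 of 8) were 3912 to 7997 CPM in vehicle and 1126 and 1373 CPM at 900 mg/kg/day, and their part in the Cdkn1c value was not tested.

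**Figure D4:**
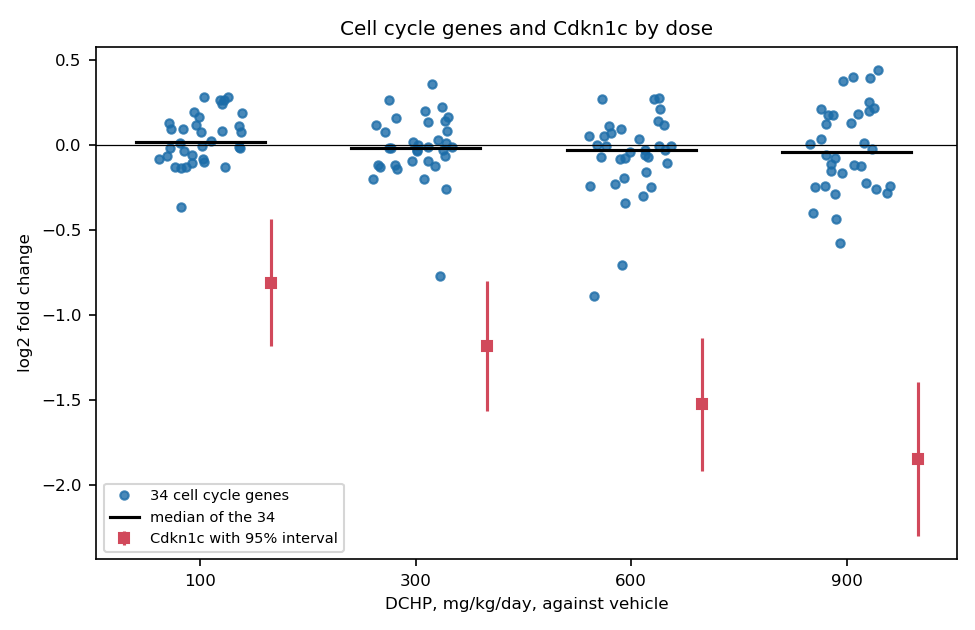
Log2 fold change against vehicle at each DCHP dose for the 34 tested cell cycle genes (blue points, median as a bar) and for the inhibitor Cdkn1c with its 95% interval (red). The medians lie between -0.042 and 0.016, while Cdkn1c goes from -0.81 at 100 to -1.85 at 900 mg/kg/day.

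The next smallest slope p values in that list belonged to Rbl2 (p130, a pocket protein that restrains E2F genes in resting cells), Kifc1 (a spindle motor) and Cdk4 (the partner of D cyclins), at 0.036 ± 0.018, -0.037 ± 0.019 and -0.041 ± 0.024 log2 per 100 mg/kg/day, none of which passed (adjusted p = 0.9999 in edgeR). The list held 33 tested origin and fork genes and 25 tested mitosis genes. Their median log2 fold changes at 900 mg/kg/day were 0.079 and 0.040, beside 0.024 over all tested genes, and none passed. Of 6 tested p53 targets, none passed at any dose.

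Among the regulators, 3 genes picked after their values were seen followed the same litters as Cdk1 and Aurka. Over all tested genes, 13.3% had their 4 highest and 10.2% their 4 lowest values in these litters. That share was not counted over the 88 tested genes of the list. Rbl2, named above for its slope, followed these litters too. It was at 98.8, 93.9, 100.3 and 111.4 CPM in the first vehicle, first 100 mg/kg/day and both 900 mg/kg/day litters. In the other litters it ran from 63.2 to 86.6 CPM. Foxm1, the factor that drives late cell cycle promoters, was at 2.18, 11.6 and 5.26 CPM in vehicle, 0, 7.87 and 7.75 at 100, 6.55, 5.53 and 8.70 at 300, 7.63, 5.75 and 7.03 at 600, and 1.33 and 1.03 at 900 mg/kg/day. Its 4 lowest values were again in the first vehicle litter, the first 100 mg/kg/day litter and the 900 mg/kg/day litters. The log2 fold change at 900 mg/kg/day was -2.44 ± 1.02 (95% interval 0.0400 to 0.853-fold, unadjusted p = 0.03294, adjusted p = 0.8517 in edgeR). Ccnd2, a D cyclin, was at 9.03, 3.38 and 3.54 CPM in vehicle, 9.01, 2.67 and 2.75 at 100, 2.90, 4.05 and 3.00 at 300, 3.25, 2.95 and 2.22 at 600, and 11.2 and 7.47 at 900 mg/kg/day, with its 4 highest values in those litters. E2f4, the E2F that represses with p130, had log2 fold changes of 0.78 ± 0.51 at 900 mg/kg/day and 1.61 ± 0.56 between 900 and 600 mg/kg/day (adjusted p = 0.5081 in edgeR). Its 4 highest values, 1.79 to 2.61 CPM, were in those litters. Its counts were low, with a mean of 11.6, and its 600 mg/kg/day litters were at 0.25, 1.09 and 0.74 CPM.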

How the data were processed

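TempO-Seq libraries of 14 litters were analysed. The deposited tables hold estimated counts per Ensembl gene on rn7. The submitters' processing notes name STAR 2.7.8a, Partek and DESeq2, and the counting tool is not given in the sources used here. The estimated counts were used as deposited, rounded to whole numbers; 83.6% were whole to a tolerance of 1e-09. A table corrected for attenuation differed in 16 genes and in 0 members.

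Genes were filtered with filterByExpr (12719 kept, 5455 left out), scaled by TMM and tested in edgeR 4.0.16 (R 4.3.3) with 1 robust quasi-likelihood model of all libraries and 9 residual degrees of freedom; a separate model took dose as a number. The script was first tested on simulated data. The members, gene lists, litter set and the comparison of the 2 highest doses were chosen with earlier results of these data known. Named in full were a panel of 13 genes and the 3 smallest p per comparison, and for other cell cycle genes those past the threshold and the 4 smallest slope p. Tyms, Tpx2, Aurka and Nusap1, and 6 of the promoters shown, were added for following the litter set. Cdc45 has 2 rows, of which the first was used. Alternatives were DESeq2 1.42.0, other scalings, no filter, corrected counts, 2-group fits and leaving out libraries. One marker gene is not reported here.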

Additional observations from a re-analysis of the deposited data

How the results depend on the processing

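Of 125 alternative counts of members past the threshold, 121 were 0, as in the model of all libraries, including each of the 14 fits without 1 library (range 0 to 0). Among the exceptions were 9 members (26.5%, beside 16.2% of all tested genes) between 900 and 600 mg/kg/day when only those groups were fitted. The rest came from a setting chosen after seeing the data. It left out the first vehicle litter and the first 100 mg/kg/day litter, which were picked for lying with the 900 mg/kg/day litters. In it 8 passed at 900 mg/kg/day against vehicle (23.5%, beside 16.4%). Between 900 and 600 mg/kg/day 8 passed (23.5%, beside 13.8%), and 6 for the slope (17.6%, beside 11.6%). The cause was not tested. With library totals alone the median of all genes between 900 and 600 mg/kg/day went from 0.033 to 0.14 and that of the members from 0.055 to 0.16, and 19 members were positive and 15 negative at 900 mg/kg/day against vehicle instead of 16 and 18. A change of sign was counted only where the first value exceeded its SE, a rule set after values were seen: in the other cases 111 of 978 values changed sign. Under it, Bub1 turned positive without vehicle replicate 2 (leave-one-out range -0.36 to 0.065 at 600 and -0.42 to 0.0060 at 900 mg/kg/day). No paired analysis was possible because litters carry no numbers shared between groups. Of the tested members Top2a had the lowest mean count (19.1, from 9 to 29 in a library), and 2 litters limit every value at 900 mg/kg/day.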

Other observations

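The tested members were not spread evenly over the genome: 7 of 34 (20.6%) lay on chromosome 3, against 7.41% of all tested genes, a count picked after it was seen and not tested. They were Pcna, Bub1, Bub1b, Aurka, Nusap1, Tpx2 and Gins1. Whole-number counts were found in every library for 22 members, while those of Mcm2, Ttk and Tyms were fractional in all 14.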
